A study of Mus musculus with 14 samples.

Results

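The 10 genes described here are immediate early response genes: Fos, Fosb, Jun, Junb, Atf3, Egr1, Egr2, Ier2, Ier3 and Myc. They were chosen by name, and all 10 were found among the 49585 genes of both deposited expression tables. RNA was sequenced from hind limb skeletal muscle of mice that were either wild type (WT) or lacked Myf6 (KO), from uninjured and from injured muscle, and each of these 4 groups has 3 libraries. Myf6, also called MRF4, is a muscle-specific transcription factor of the basic helix-loop-helix family. The uninjured and the injured library of a replicate carry 1 animal number, with the letter L or R, and are read here as the 2 limbs of an animal. On that reading each uninjured muscle came from an animal whose other limb was injured. The kind of injury, the time after it, the strain, the age and the knockout allele are not given in the sources used here.

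Immediate early genes are transcribed within minutes of a stimulus, without new protein synthesis, from promoters on which serum response factor, ternary complex factors and CREB are already in place. MAP kinases carry the signal to these factors. Most of the products are themselves transcription factors: Fos and Jun proteins pair to form AP-1, Egr proteins bind GC-rich sites, and Myc drives growth and ribosome production. Their RNAs are short-lived, and handling and dissection of muscle can induce them as injury does.

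The sequences below show where motifs of the basic helix-loop-helix family, to which Myf6 belongs, and of serum response factor lie before the start sites of the AP-1 genes with most Myf6 peaks nearby and of Egr2. They are RefSeq sequences of build GRCm38.p6, printed 5′ to 3′ on the strand of the gene. Capitals mark E-boxes (CANNTG), the motif of the basic helix-loop-helix family, in the 250 bases before the start sites of Fos (chr12:85473640-85473889, plus strand), Fosb (chr7:19310046-19310295, minus strand) and Jun (chr4:95052223-95052472, minus strand).
Fos: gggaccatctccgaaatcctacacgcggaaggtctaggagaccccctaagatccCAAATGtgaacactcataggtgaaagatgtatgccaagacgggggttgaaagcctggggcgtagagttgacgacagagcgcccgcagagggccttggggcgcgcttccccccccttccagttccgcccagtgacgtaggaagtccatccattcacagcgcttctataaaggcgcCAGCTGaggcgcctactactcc
Fosb: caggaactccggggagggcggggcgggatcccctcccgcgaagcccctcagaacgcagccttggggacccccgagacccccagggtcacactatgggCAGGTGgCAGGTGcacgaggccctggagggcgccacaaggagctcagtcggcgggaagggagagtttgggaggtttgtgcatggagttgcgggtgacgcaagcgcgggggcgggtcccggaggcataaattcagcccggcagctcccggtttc
Jun: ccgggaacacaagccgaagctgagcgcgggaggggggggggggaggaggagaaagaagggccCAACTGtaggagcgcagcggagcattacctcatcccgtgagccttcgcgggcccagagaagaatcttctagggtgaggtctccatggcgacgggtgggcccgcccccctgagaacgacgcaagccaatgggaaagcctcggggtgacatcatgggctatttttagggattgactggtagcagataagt

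For Egr2, 30 bases around each distinct CArG box, the motif of serum response factor, are shown with the box in capitals (chr10:67537484-67537513 for the upstream site and chr10:67537787-67537816 for the downstream site, both on the plus strand).
Egr2 upstream site: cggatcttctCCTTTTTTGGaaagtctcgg
Egr2 downstream site: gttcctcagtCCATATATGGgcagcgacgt

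Windows from 250 bases before to 50 after a RefSeq start site were at hand for 7 of the 10 genes, 11 windows in all, of which 5 belong to Egr2. There was none for Egr1, Ier2 and Myc. Sites more than 250 bases before a start were not searched, so a gene without a motif in its window may hold it elsewhere. An exact CArG box was found in 1 of the 7 genes, Egr2, against 1.81% of 27025 genes. It lay in 4 of the 11 windows, against 1.63% of all 32851 promoter windows, and 3 of these 4 overlap and hold the same downstream box. An E-box on either strand was found in 10 of the 11 windows and in each of the 7 genes, against 72.3% of all windows. The Fosb window holds a close pair of E-boxes with the same letters, CAGGTG, and the 250 bases of Jun hold 1. The ETS core GGAA, read on both strands, was found in all 11 windows, against 96.0% of all, and 1 GGAA overlaps the upstream CArG box of Egr2. Neither the full CRE (TGACGTCA, the CREB motif) nor the AP-1 motif TGANTCA was found in any of the 11, against 1.79% and 7.81% of all windows. Only exact letters were searched, so variants such as tgacatca in the printed Jun sequence are not counted.

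The libraries held 1880087 to 49392472 reads assigned to genes, recovered as whole reads from the deposited RPM values, which are reads per 1000000 assigned to genes. The shallowest was WT uninjured replicate 2, where 3 reads, taken as the detection floor, are worth 1.60 RPM. In that library Fos rests on 6 reads, Egr1 on 3, Egr2 on 2, Myc on 4, Atf3 on 5 and Fosb on 0. Myf6 itself ranged from 25 to 121 RPM in the WT libraries and from 1.86 to 3.46 RPM in the KO libraries. KO injured replicate 2 stood apart from the other 2 libraries of its group: its muscle fibre markers summed to 64181 RPM against 103150 and 104755, its mitochondrial share was 23.2% against 4.30% and 4.95%, and its endothelial and smooth muscle marker sums were the highest of the group. In bulk muscle, fewer cells of a type and less RNA per cell cannot be told apart. RPM is not scaled to gene length, so levels below are compared between libraries of 1 gene and not between genes.

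**Figure D1:**
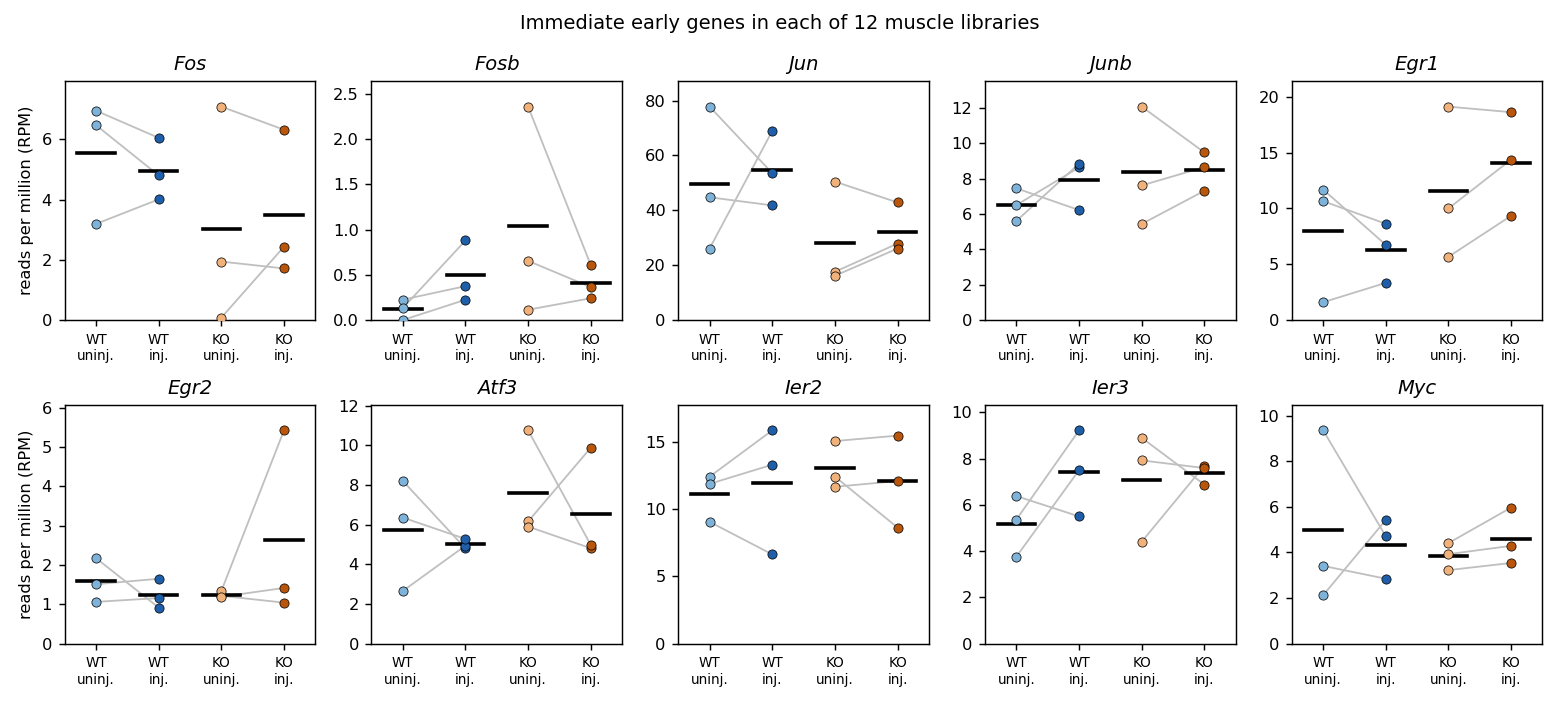
RPM (linear axis from 0, scaled per gene) of the 10 genes in the 12 libraries, with a point per library, a black bar at each group mean and a grey line joining the uninjured and injured library of an animal. The 3 KO injured libraries of Egr1, from 9.34 to 18.6 RPM, all lie above the 3 WT injured libraries, from 3.33 to 8.63 RPM, whereas Jun and Fos spread widely within groups.

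Fos, the prototype immediate early gene, was at 6.47, 3.19 and 6.95 RPM in WT uninjured replicates 1 to 3 and at 1.94, 0.0787 and 7.08 RPM in KO uninjured muscle. In injured muscle it was at 4.80, 4.01 and 6.05 RPM (WT) and 1.71, 2.43 and 6.32 RPM (KO). In each state KO replicate 3 was above every WT library and the other 2 KO libraries were below every WT library, so the groups overlapped. The value of 0.0787 RPM is 1 read among 12704445.

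Fosb, a Fos relative induced by strong or repeated stimuli, rested on 0 to 30 reads in each library. It was at 0.225, 0 and 0.132 RPM in WT uninjured muscle and at 0.114, 2.36 and 0.655 RPM in KO uninjured muscle. The injured libraries lay between 0.225 and 0.880 RPM in WT and between 0.241 and 0.609 RPM in KO. Only 1 of the 12 libraries reached 1 RPM, KO uninjured replicate 2, which held 30 Fosb reads and 1 Fos read. That library also had the highest smooth muscle marker sum of the 12, 289 RPM against 56.0 to 211 in the others. Whether the marker difference has a part in the Fosb value was not tested.

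Jun, the main partner of Fos, was at 44.7, 26.1 and 77.8 RPM in WT uninjured muscle and at 17.6, 16.1 and 50.5 RPM in KO uninjured muscle. In injured muscle it was at 41.8, 68.9 and 53.5 RPM (WT) and 27.9, 26.1 and 42.9 RPM (KO). The group means were 54.7 ± 13.6 RPM (SD, n = 3) in WT injured and 32.3 ± 9.22 RPM (SD, n = 3) in KO injured muscle, and 1 KO library lay just above the lowest WT library. Its replicates differed far beyond counting error: the chi-square per degree of freedom of its read counts within groups, which is near 1 where only counting varies, ran from 62.6 to 329.

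Junb, a weaker activator that can replace or oppose Jun, was steadier. Its group means were 6.52 ± 0.923 RPM (SD, n = 3) in WT uninjured, 8.37 ± 3.38 RPM (SD, n = 3) in KO uninjured, 7.89 ± 1.46 RPM (SD, n = 3) in WT injured and 8.47 ± 1.1 RPM (SD, n = 3) in KO injured muscle. The highest library was KO uninjured replicate 3 at 12.1 RPM, and ranges overlapped between all groups next to each other in level. Atf3, a stress-induced partner of AP-1 that often represses, had means from 5.01 ± 0.247 RPM (SD, n = 3) in WT injured to 7.61 ± 2.73 RPM (SD, n = 3) in KO uninjured muscle. Its 3 WT injured libraries, at 4.80, 4.94 and 5.28 RPM, differed by no more than counting error, with a chi-square per degree of freedom of 0.251.

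Egr1, a zinc finger factor induced by serum, stretch and wounding, was the only one of the 10 genes whose KO and WT libraries did not overlap in one of the states. In injured muscle it was at 8.63, 3.33 and 6.74 RPM (WT) and 9.34, 14.4 and 18.6 RPM (KO), and the groups did not overlap. All KO injured libraries lay above all WT injured libraries for 8.29% of all 12625 genes tested, so 1 such gene among 10 is near that share. The means were 6.23 ± 2.68 RPM (SD, n = 3) and 14.1 ± 4.65 RPM (SD, n = 3), a ratio of 2.27. In uninjured muscle Egr1 was at 10.7, 1.60 and 11.7 RPM (WT) and 5.67, 10.0 and 19.1 RPM (KO), and these ranges overlapped. Among the injured libraries, smooth muscle markers summed to 99.0 to 211 RPM in KO and 56.0 to 96.7 RPM in WT, with 3 of 3 markers higher at an unadjusted p under 0.05, and endothelial markers to 235 to 411 RPM against 157 to 243 RPM, with 1 of 5 higher. Of all genes, 5.06% were higher at that p. No defining marker of either cell type was at 0 in any library. The part of these cells in the Egr1 values was not tested.

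Egr2, also called Krox20, is a zinc finger factor related to Egr1. It was at 1.51, 1.06 and 2.17 RPM in WT uninjured, 1.22, 1.34 and 1.19 RPM in KO uninjured and 1.65, 1.16 and 0.919 RPM in WT injured muscle. In KO injured muscle it was at 1.04, 5.42 and 1.42 RPM, so that replicate 2 alone lay far above the other 11 libraries. Without KO injured replicate 2 the fitted KO minus WT difference of Egr2 in injured muscle moved from 0.51 to -0.000215 on the log2 scale. It is the library whose markers and mitochondrial share stood apart from its group, and the part of that difference in the Egr2 value was not tested.

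Ier2, a small nuclear regulator induced by growth factors, was among the steadiest of the 10 genes, with means from 11.1 ± 1.80 RPM (SD, n = 3) in WT uninjured to 13.0 ± 1.78 RPM (SD, n = 3) in KO uninjured muscle. Its lowest and highest libraries, at 6.63 and 15.8 RPM, were both WT injured. Ier3, a stress-induced protein linked to cell survival, had means of 5.17 ± 1.32 RPM (SD, n = 3) in WT uninjured, 7.08 ± 2.36 RPM (SD, n = 3) in KO uninjured, 7.41 ± 1.86 RPM (SD, n = 3) in WT injured and 7.39 ± 0.443 RPM (SD, n = 3) in KO injured muscle. The 3 KO injured libraries of Ier3, from 6.88 to 7.69 RPM, differed by no more than counting error. Myc was at 3.41, 2.13 and 9.36 RPM in WT uninjured and 4.41, 3.23 and 3.93 RPM in KO uninjured muscle, and the injured libraries lay between 2.85 and 5.97 RPM. The highest Myc library, WT uninjured replicate 3, lay apart from the 11 others.

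None of the 10 genes passed the test for KO against WT in uninjured muscle. The test was limma on log2(RPM + 1) with Benjamini-Hochberg adjustment over all genes at a threshold of 0.05, and Fosb was too low to be tested. Of 12460 genes tested 0.281% passed, and 0 of the 9 tested members passed. At an unadjusted p under 0.05 the count was also 0 of 9, against 14.2% of all genes. The largest estimates were -1.09 for Fos (SE 0.67, 95% interval -2.61 to 0.43, limma adjusted p = 0.503) and -0.86 for Jun (SE 0.51, interval -2.01 to 0.30, adjusted p = 0.489). Egr1 was estimated at 0.65 higher in KO with an interval of -0.83 to 2.12. The other 6 lay between -0.18 and 0.41, with intervals from -1.19 to 1.41 at their widest ends. The median over the 9 was 0.22, beside -0.18 over all genes tested. That median of all genes depends on the scaling, and upper quartile scaling moved it to 0.07.

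In injured muscle 0 of the 9 tested members passed, against 0.269% of 12625 genes tested. At an unadjusted p under 0.05 there were 2 of 9, against 10.3% of all genes: 1 higher, beside 5.06% of all genes, and 1 lower, beside 5.26%. Egr1 was higher in KO by 1.09 on the log2 scale (SE 0.37, 95% interval 0.23 to 1.96, unadjusted p = 0.0204, limma adjusted p = 0.401). Over 16 alternative settings its adjusted p ran from 0.0959 to 0.962. Groups in which all KO libraries lay above all WT libraries were found for 8.29% of all genes tested. Jun fell short of the threshold in the other direction, at -0.75 (SE 0.27, interval -1.38 to -0.12, unadjusted p = 0.0263, limma adjusted p = 0.415), with an adjusted p from 0.123 to 0.994 over 16 alternatives. Fos was estimated at -0.53 with an interval of -1.43 to 0.38 and Egr2 at 0.51 with an interval of -0.53 to 1.55. The narrowest intervals belonged to Junb, -0.39 to 0.58, and Ier3, -0.49 to 0.53. For these genes, and for Atf3, Ier2 and Myc, a difference of 1 on the log2(RPM + 1) scale lies outside the interval in either direction. Differences on that scale understate the change in RPM, most for low genes such as Egr2 and Fos. An interval that leaves out 1 therefore need not leave out a 2-fold change in RPM, as for Atf3, whose upper limit was 0.92. The median over the 9 was 0.08, beside 0.01 over all genes tested. Fits that called other numbers of genes left the count of members at 0 in each state: edgeR on the recovered reads called 0.441% of all genes in uninjured and 0.261% in injured muscle, DESeq2 5.32% and 3.38%, and limma with the replicate number as a block 6.04% and 0%.

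**Figure D2:**
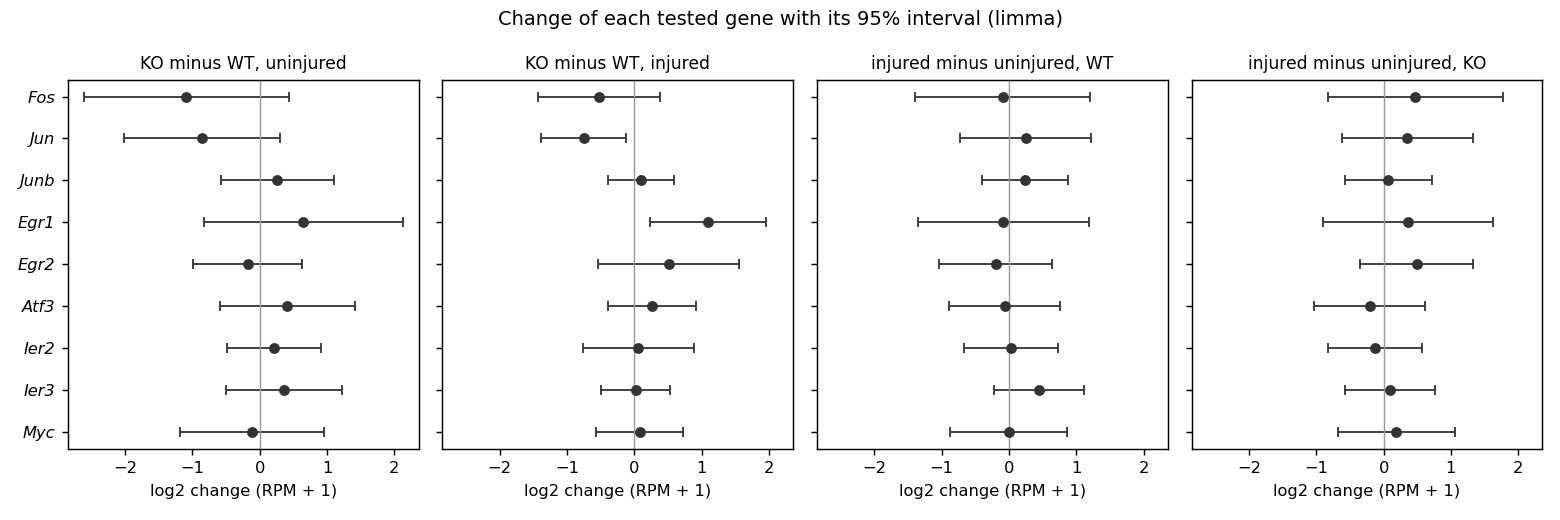
Difference on the log2(RPM + 1) scale (points) with 95% intervals (bars) from limma for the 9 tested genes, in 4 panels for KO minus WT in uninjured and injured muscle and injured minus uninjured in WT and KO. Only the intervals of Egr1, 0.23 to 1.96, and Jun, -1.38 to -0.12, in the panel of injured KO minus WT leave out 0, and neither passed after adjustment over all genes.

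The authors' deposited table gave the same outcome, with 0 of the 10 members at a q-value under 0.05 in either state, beside 331 genes (0.668%) in uninjured and 225 genes (0.454%) in injured muscle. Its lowest member p-value was 0.0043 for Egr1 in injured muscle, at a log2 difference of 1.22 and a q-value of 0.378 in the authors' deposited table. For Fosb in uninjured muscle the authors' deposited table gives a difference of 3.17 towards KO with a p-value of 0.0249 and a q-value of 0.682. That Fosb value rests on 11 reads in the 3 WT and 61 reads in the 3 KO libraries, 30 of them in 1 library. In a fit of all genes without a filter on low values, Fosb differed by 0.72 (SE 0.39, limma adjusted p = 0.654).

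Injury did not move any member past the threshold in either genotype. In WT muscle 0 of 9 passed, where the share of all 13337 genes tested was 0%, and at an unadjusted p under 0.05 there were 0 of 9, against 1.29% of all genes. The estimates for injured minus uninjured WT ran from -0.19 for Egr2 to 0.44 for Ier3, and the interval of Ier3 was -0.22 to 1.11. In KO muscle 0 of 9 passed, again with 0% of all genes, and 0 of 9 had an unadjusted p under 0.05, against 3.51% of all genes. The KO estimates ran from -0.21 for Atf3 to 0.49 for Egr2, beside a median of 0.29 over all genes. The intervals for Fos, -1.40 to 1.21 in WT and -0.83 to 1.77 in KO, reach past a log2 difference of 1 in each genotype. Tested with edgeR or DESeq2 on the recovered reads, 0 members passed for injury in either genotype, where again 0% of all genes passed.

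Within animals the direction was mixed. Fos was higher in the injured library in 1 of 3 WT and 1 of 3 KO animals, Jun in 1 of 3 and 2 of 3, and Egr1 in 1 of 3 and 2 of 3. For WT replicate 2, whose uninjured library was the shallowest, Jun went from 26.1 to 68.9 RPM, while in WT replicate 3 it went from 77.8 to 53.5 RPM. Myc was higher in the injured library in all 3 KO animals, by 0.10 to 0.36 on the log2 scale, and in 1 of 3 WT animals. Fosb was higher in all 3 WT animals and in 1 of 3 KO animals, from 0 to 30 reads a library. The difference between the genotypes in the injury effect was tested as an interaction, and 0 of 9 members passed, with 0% of 13337 genes. At an unadjusted p under 0.05 there were 0 of 9, against 1.56% of all genes. It was widest for Egr2, at 0.69 with an interval of -0.50 to 1.88, and for Fos, at 0.56 with an interval of -1.28 to 2.41.

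The members did not move as a block over the 12 libraries, which come from 6 animals. Among the 36 pairs of the 9 tested genes, 24 had a Pearson r above 0, and the median r of log2(RPM + 1) was 0.113. Fos and Jun, the AP-1 partners whose promoters are printed above, had the highest at 0.834, followed by Junb with Ier3 at 0.711 and Egr1 with Atf3 at 0.613. The lowest was -0.290, for Jun with Ier2. These are descriptions over libraries that share animals and differ in depth. The genes whose profile was most like the mean standardised profile of the 9, among 13337, were Sulf2 (r = 0.926), 2500004C02Rik (r = 0.924), Epas1 (r = 0.911), Hnrnpul2 (r = 0.898) and Klf11 (r = 0.895).

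**Figure D3:**
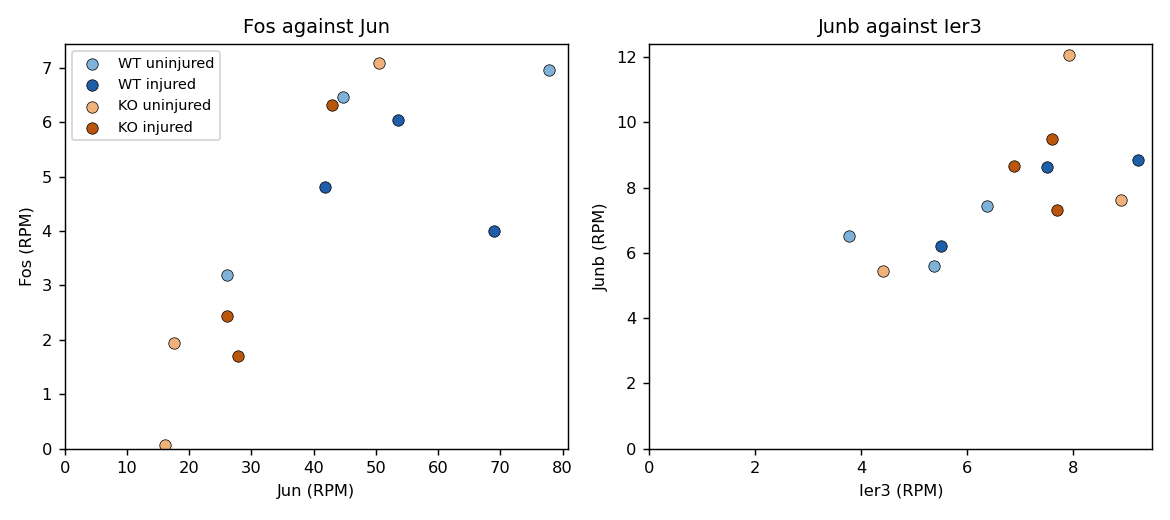
Left, Fos against Jun, and right, Junb against Ier3, all in RPM on linear axes from 0, with a point for each of the 12 libraries coloured by group. These are the pairs with the highest Pearson r of log2(RPM + 1), 0.834 and 0.711, and the 4 groups overlap in both plots.

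Beyond the 10 members, 51 other immediate early genes were examined as a list, and here the estimates in KO muscle lay mostly below WT. The list was chosen with earlier results of these data known, so its counts are a description and not an independent test. Both states come from the same animals, so neither is an independent repeat of the other. In uninjured muscle 40 of the 45 tested had an estimate below 0, beside 7876 of all 12460 genes, and with upper quartile scaling 34 of 45, beside 5642 of 12460. Their median was -0.53 beside -0.18 over all genes tested, and 11 were lower and 2 higher at an unadjusted p under 0.05. That is 28.9% of the list, beside 14.2% of all genes. In injured muscle 35 of 45 were below 0, beside 6065 of 12625 genes, with a median of -0.28 beside 0.01, and 9 were lower and 2 higher at an unadjusted p under 0.05 (24.4%, beside 10.3% of all genes). None of the 45 passed the adjusted threshold in either state with limma as described above or with edgeR. With the replicate number as a block limma called 6 in uninjured muscle, all lower, and 0 in injured muscle. It called 1 in uninjured muscle, lower, with all 12 libraries in 1 fit and 1, also lower, with scaling to reads outside mitochondrial genes. DESeq2 on the recovered reads called 3 in uninjured (all lower) and 4 in injured muscle (3 lower, 1 higher). Of all genes DESeq2 called 5.32% in uninjured and 3.38% in injured muscle. Its 3 of 45 is near the first share, and its 4 of 45 is above the second. The replicate block called 6.04% of all genes in uninjured muscle. The fit of 12 libraries called 167 of 13337 genes there, and the mitochondrial scaling 189 of 12443. The authors' deposited table gives 2 of the 51 a q-value under 0.05 in uninjured muscle, both lower in KO, and 3 in injured muscle (2 lower, 1 higher). The summed level was 1184 to 1646 RPM in WT uninjured against 629 to 1207 RPM in KO uninjured libraries, which overlap, and 1441 to 1623 RPM in WT injured against 941 to 1143 RPM in KO injured libraries, which do not. The list's median stayed below that of all genes under each of the 16 settings of each comparison, by 0.33 to 0.50 in uninjured and by 0.25 to 0.43 in injured muscle.

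The 3 genes with the lowest p in uninjured muscle were Klf2, Sgk1 and Dusp1. Klf2, a quiescence factor of endothelium and T cells, was at 54.9, 61.7 and 70.0 RPM in WT and 18.8, 25.7 and 23.0 RPM in KO, a difference of -1.43 (SE 0.27, limma adjusted p = 0.0655). Sgk1, a kinase induced by glucocorticoids and serum, was at 147, 139 and 159 RPM in WT and 25.1, 23.4 and 97.5 RPM in KO, a difference of -1.91 (SE 0.49, limma adjusted p = 0.151). Dusp1, the phosphatase that turns off MAP kinases, was at 72.2, 69.7 and 73.0 RPM in WT and 14.5, 10.2 and 46.6 RPM in KO, a difference of -1.84 (SE 0.48, limma adjusted p = 0.153). In each of them all KO libraries lay below all WT libraries. They were picked for their low p, which favours such a separation, and the share of all genes with it is not given here. For Sgk1 and Dusp1 KO replicate 3 was the highest KO library, as it was for Fos and Jun. Without that library the limma adjusted p was 0.00213 for Sgk1 and 0.00724 for Dusp1. Of all 12166 genes tested, 84 passed in that fit. DESeq2 on the recovered reads gave adjusted p-values of 0.0174, 0.0103 and 0.0109 for Klf2, Sgk1 and Dusp1. The authors' deposited table gives q-values of 0.0439 for Sgk1 and 0.0468 for Dusp1. Over 16 alternatives the adjusted p ran from 0.00693 to 0.484 for Klf2, from 0.00213 to 0.613 for Sgk1 and from 0.00724 to 0.638 for Dusp1.

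In injured muscle the 3 were Sgk1, Arc and Gadd45g. Sgk1 was at 153, 211 and 156 RPM in WT and 67.2, 63.7 and 88.4 RPM in KO (limma adjusted p = 0.105). Gadd45g, a growth arrest gene, was at 177, 211 and 134 RPM in WT and 34.5, 66.4 and 85.3 RPM in KO (limma adjusted p = 0.218). Arc, best known in neurons as an immediate early gene, went the other way, at 0.900, 0.337 and 0.995 RPM in WT and 2.36, 3.43 and 3.91 RPM in KO (limma adjusted p = 0.173). The authors' deposited table gives q-values of 0.00671 for Sgk1, 0.00698 for Arc and 0.0403 for Gadd45g. Without KO injured replicate 2 the adjusted p was 0.0129 for Sgk1 and 0.0258 for Gadd45g, within ranges over 16 alternatives of 0.000176 to 0.561 and 0.0101 to 0.693. In that fit 11 of the 44 list genes tested passed, all lower in KO, when 19.0% of all genes passed. No member passed in it.

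**Figure D4:**
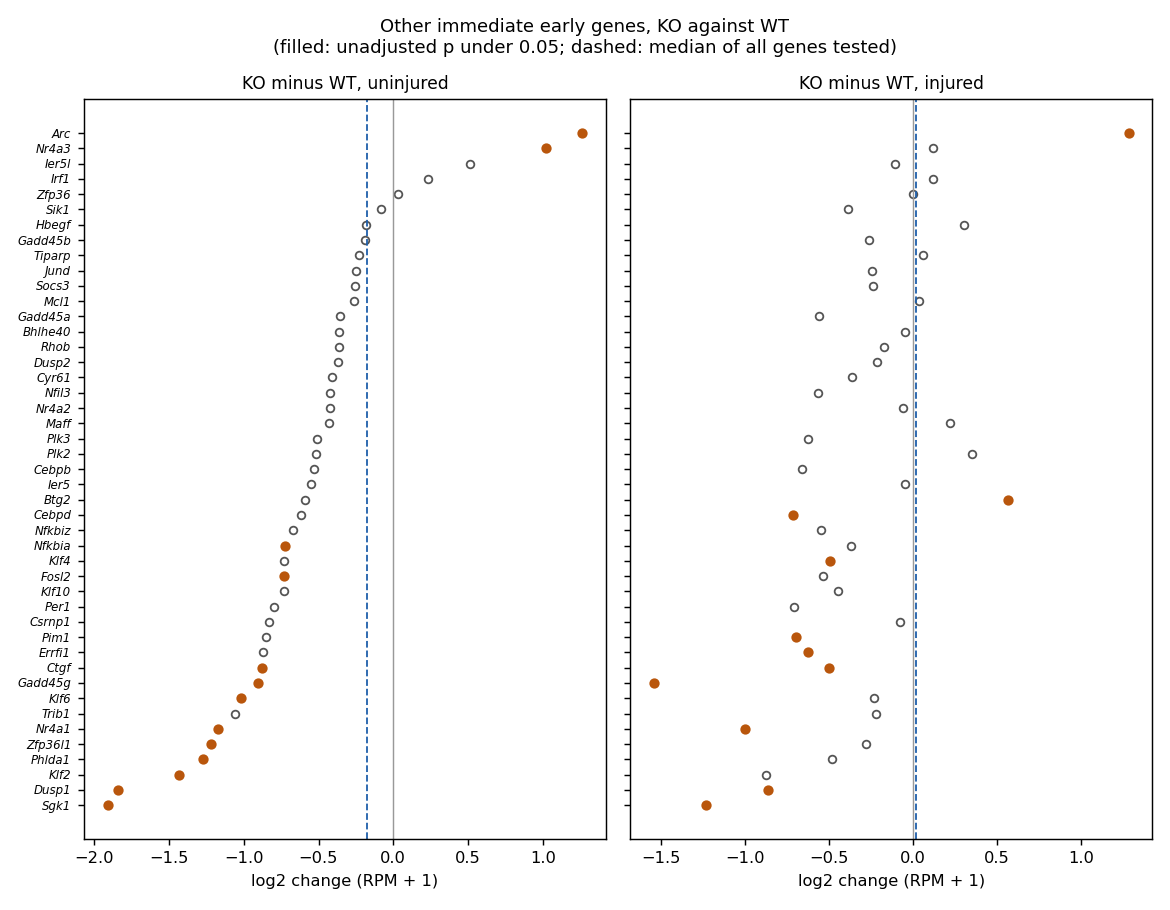
Difference KO minus WT on the log2(RPM + 1) scale for the other immediate early genes tested in uninjured (left) and injured (right) muscle, sorted by the uninjured value, with filled points at an unadjusted p under 0.05 and a dashed line at the median of all genes tested. Most points lie left of the dashed line, 40 of 45 below 0 on the left and 35 of 45 on the right, while Arc lies to the right in both.

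The genes around the members, upstream factors, partners and targets, gave no call with limma as described above. At an unadjusted p under 0.05 the shares of all genes were 14.2% in uninjured and 10.3% in injured muscle. Of 26 upstream kinases and factors, all tested, 4 had such a p in uninjured muscle (1 higher, 3 lower), which is near the share of all genes, and 0 in injured muscle. Map2k2, a MAP kinase kinase, was at 129 to 153 RPM in WT and 210 to 254 RPM in KO uninjured libraries (limma adjusted p = 0.206). Creb1, the factor of the CRE, was at 14.8 to 21.5 RPM in WT and 4.09 to 11.9 RPM in KO (limma adjusted p = 0.309). Of 15 partners and antagonists, 1 of 11 tested was lower in uninjured and 1 of 12 higher in injured muscle at that p. The first was Mxd1, a Myc antagonist, at a difference of -1.19, and the second Mxd4, of the same family, at 0.49. With the replicate number as a block limma called Mga, a partner of Max, lower in uninjured muscle (adjusted p = 0.0484). Without KO injured replicate 2, where 19.0% of all genes passed, limma called 5 of 26 upstream genes, 2 of 11 partners, 2 of 10 AP-1 and Egr targets and 1 of 16 Myc targets in injured muscle.

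Among 14 target genes of AP-1 and Egr, 2 of 11 tested had an unadjusted p under 0.05 in uninjured muscle (1 higher, 1 lower) and 4 of 11 in injured muscle (1 higher, 3 lower). Vegfa, the angiogenic growth factor, was at 264, 179 and 192 RPM in WT and 76.0, 45.4 and 74.1 RPM in KO uninjured libraries, a log2 difference of -1.70 with an SE of 0.30 (limma adjusted p = 0.0580). Among injured libraries it was at 249, 194 and 225 RPM in WT and 64.5, 147 and 66.8 RPM in KO, where KO replicate 2 was the highest (limma adjusted p = 0.259, and 0.00250 without that library, the lowest of 16 alternatives, which reached 0.834). Tgfb1, a growth factor that Egr1 is known to induce, was at 3.09, 1.06 and 3.20 RPM in WT and 8.52, 6.06 and 7.15 RPM in KO uninjured libraries (limma adjusted p = 0.20), and at 4.35, 3.63 and 2.79 RPM in WT and 7.60, 5.26 and 8.38 RPM in KO injured libraries (limma adjusted p = 0.333). In uninjured muscle Vegfa passed with edgeR (adjusted p = 0.0403), and with limma under upper quartile scaling (adjusted p = 0.0336), scaling to reads outside mitochondrial genes (0.0198), the replicate block (0.00205), all 12 libraries in 1 fit (0.0273) and without KO uninjured replicate 3 (0.0321). DESeq2 called both Vegfa and Tgfb1 in uninjured and Vegfa in injured muscle. The authors' deposited table gives Vegfa a q-value of 8.72e-05 in uninjured muscle. Of 16 Myc target genes, all tested, 1 was higher at that p in each state, Ncl, which encodes nucleolin, at differences of 0.77 and 0.54.

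Marker sums of other cells differed between the genotypes, several with overlapping ranges. None of the 37 markers tested in uninjured muscle passed with limma as described above. With the replicate number as a block limma called 8 of them (3 higher, 5 lower), beside 6.04% of all genes. DESeq2 on the recovered reads called 6 (4 higher, 2 lower), beside 5.32% of all genes. At an unadjusted p under 0.05, 440 of all 12460 genes were higher in uninjured muscle and 1334 lower. In uninjured muscle adipocyte markers summed to 38.8 to 152 RPM in WT and 110 to 286 RPM in KO, with 3 of 3 higher at an unadjusted p under 0.05. Macrophage and leukocyte markers summed to 70.7 to 135 RPM in WT and 39.6 to 70.7 RPM in KO, with 3 of 6 lower. Fibro-adipogenic markers summed to 325 to 866 RPM in WT and 281 to 582 RPM in KO, with 2 of 5 lower. In injured muscle adipocyte markers summed to 10.7 to 76.8 RPM in WT and 59.2 to 392 RPM in KO, with 2 of 3 higher. Macrophage and leukocyte markers summed there to 91.6 to 117 RPM in WT and 76.9 to 85.7 RPM in KO, with 1 of 6 lower. Fibro-adipogenic markers summed there to 598 to 680 RPM in WT and 468 to 684 RPM in KO, with 1 of 5 lower. These injured counts are at the same p, beside 5.06% higher and 5.26% lower of all genes. The neutrophil marker Ly6g was listed at 0 in 11 of the 12 libraries, the other holding 1 read, and the neutrophil sum did not exceed 3.98 RPM in any library, injured ones included. Satellite cell markers summed to 22.3 to 32.2 RPM in WT and 30.1 to 40.8 RPM in KO uninjured libraries. Most of that sum was Cdh15, at 16.5 to 17.9 RPM in WT and 21.6 to 31.2 RPM in KO. Of the 4 satellite cell markers tested, 2 were estimated higher and 2 lower, with 0 at an unadjusted p under 0.05. Pax7 was at 2.48 to 3.69 RPM in WT and 0.989 to 2.68 RPM in KO. Red cell markers summed to 333 to 548 RPM in WT and 159 to 396 RPM in KO uninjured libraries, with 2 of 4 lower. Muscle fibre markers, 4 genes that define the labelled tissue, summed to 76457 to 84712 RPM in WT uninjured and 93622 to 111693 RPM in KO uninjured libraries, which do not overlap. Of these 4, 3 were estimated higher and 1 lower in uninjured KO muscle, with 1 higher at an unadjusted p under 0.05. Mylpf was at 21157 to 24166 RPM in WT and 14870 to 29151 RPM in KO uninjured libraries. In injured muscle the muscle fibre markers summed to 87540 to 110492 RPM in WT and 64181 to 104755 RPM in KO, which overlap. The mitochondrial share of reads was 13.8% to 22.3% in WT and 3.63% to 15.3% in KO uninjured libraries, and 8.35% to 14.8% in WT and 4.30% to 23.2% in KO injured libraries, where replicate 2 was the highest in KO in both states. The part of these differences in the values of the members and of the other immediate early genes was not tested.

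Binding of Myf6 was measured by ChIP-seq with a Flag antibody in primary myotubes, which are fused muscle cells grown from satellite cells, in 1 library with 1 control. The fold enrichments are the authors' own. Of the 10 members, 5 had a peak summit within 50 kb of the gene, against 46.3% of 21887 protein-coding genes, so the members' share is near that of all genes. The 5 genes had 13 such peaks. Jun had a peak inside the gene, 1.88 kb downstream of its start (chr4:95050244-95050405), with a low enrichment of 3.54-fold. Jun has no introns, so this peak lies in its exon. Egr2 had a peak 7.46 kb away (chr10:67549592-67549718, 4.59-fold).

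Fos had 4 peaks within 50 kb, the nearest at 18.3 kb (chr12:85455517-85455681, 9.68-fold) and the strongest at 20.7 kb on the other side (chr12:85497758-85498191, 13.0-fold). Fosb also had 4, the nearest at 11.2 kb (chr7:19291369-19291532, 10.6-fold) and the strongest at 37.2 kb (chr7:19265360-19265599, 13.4-fold). The nearest peak to Egr1 lay 47.7 kb away, with an enrichment of 10.2-fold. The nearest peaks to Ier2, Atf3, Ier3, Myc and Junb lay 56.6, 71.4, 96.2, 138 and 161 kb away. None of the 11 promoter windows, which cover 7 genes, overlapped a peak, and the share over all windows is not given here. Other genes lie within these distances, and a peak is not assigned to a member by nearness.

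**Figure D5:**
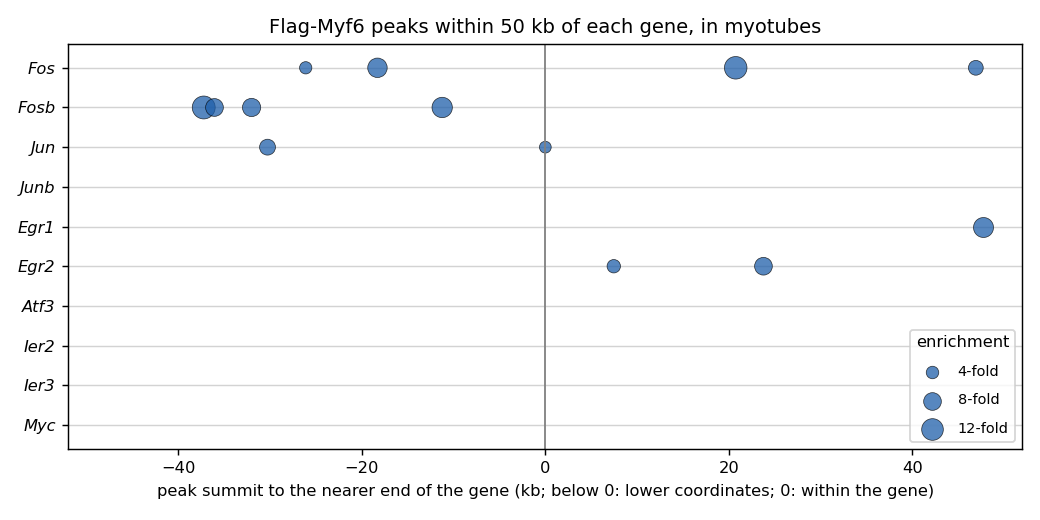
Myf6 peaks within 50 kb of each of the 10 genes, placed by the distance of the summit from the nearer end of the gene in kb (linear axis, below 0 towards lower coordinates, 0 within the gene), with the area of a point proportional to the authors' fold enrichment. Fos and Fosb have 4 peaks each, Jun 2 with 1 inside the gene, Egr2 2 and Egr1 1, and the other 5 genes have none.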

How the data were processed

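The authors deposited an expression table per state, uninjured and injured, in RPM (reads per 1000000 assigned to genes), with the authors' log2 fold change, p-value and q-value per gene. The submitters' processing notes name, without roles, HISAT2 2.1.0, Bowtie 1.1.0, SAMtools, featureCounts, DESeq2, MACS2 2.1.0.20140616, mm10 and GRCm38.p5. RNA was extracted with Trizol and made into libraries with the TruSeq RNA v2 kit, per the labels' protocols; strand use and treatment of reads with several matches are not given in the sources used here. In each library 100% of the testable RPM values came out as whole reads within 0.1 read, which gave the depth. Depth limits the low genes, and floors of 3 reads, 0.0607 to 1.60 RPM, cover counting error only. The deposited peak list of the authors gives fold enrichment as a ratio, signal pileup and −log10 p and q per peak, per the file headers.

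Each test was limma 3.58.1 (R 4.3.3) with a mean-variance trend on log2(RPM + 1), restricted to genes that reached 1 RPM in 3 or more of the fitted libraries, two-sided, with Benjamini-Hochberg adjustment. KO against WT used the 6 libraries of its own table; injury and interaction used all 12 with 4 group means. Two-sided 95% intervals are limma's. Alternatives were edgeR 4.0.16 and DESeq2 1.42.0 on recovered reads, a replicate block, 2 other scalings, a pseudocount of 0.1, 2 other filters, all 12 libraries in 1 fit, the authors' q-values and leaving out each library. The fits were tested on simulated data. The injured and uninjured libraries of an animal did not deviate together consistently in KO (r = 0.024, 0.504 and 0.628) or in WT (0.278, -0.231 and 0.0156). Animals are read from the labels' numbers, and WT and KO animals differ, so genotype and litter or batch cannot be told apart. Gene positions are from RefSeq GRCm38.p6, which shares primary coordinates with mm10; peak distances are to the gene body, since the gene table carries no strand. The members and lists were chosen with earlier results of these data known. All 10 members are named, and of each list without a call the 3 genes of lowest p, of which some are described; the 5 most alike genes are given by Pearson r. One of the marker lists, which bears on the library high in Egr2, is not reported here.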

Additional observations from a re-analysis of the deposited data

How the results depend on the processing

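The count of members past the threshold was 0 in each of the 5 comparisons and in all 92 alternatives run for them, although the number of all genes called ranged widely: in uninjured muscle limma called 35, edgeR 55, DESeq2 663 and the replicate block 752, and in injured muscle 34, 33, 427 and 0, or 2343 without KO injured replicate 2. In nearly all fits of injury and interaction, and in several of KO against WT in injured muscle, no gene passed. The member count there could not be other than 0. The replicate number of WT and KO animals is shared in name only (same-number correlations of 0.0368, 0.256 and 0.373 in uninjured and -0.452, -0.603 and -0.300 in injured muscle), and blocking on it, or on the animal for injury, gave 0 member calls. Blocking in injured muscle and blocking on the animal called 0 of all genes. Of the 10 members 5 had a peak within 50 kb, 2 within 10 kb, 8 within 100 kb and 3 with peaks of at least 10-fold enrichment, beside 25.8%, 60.6% and 19.8% of all genes for the last 3. None of the following sign changes concerns a called value, and the cause was not tested.

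For KO minus WT in uninjured muscle, leaving out each library in turn gave log2 ranges of Junb -0.00724 to 0.50, Egr1 -0.10 to 1.05 and Myc -0.48 to 0.38. For KO minus WT in injured muscle the ranges were Junb -0.0455 to 0.19, Egr2 -0.000215 to 0.83, Atf3 -0.0263 to 0.43, Ier2 -0.28 to 0.29, Ier3 -0.15 to 0.17 and Myc -0.14 to 0.23. For injury in WT they were Fos -0.39 to 0.0749, Jun -0.14 to 0.64, Egr1 -0.83 to 0.32, Atf3 -0.45 to 0.21, Ier2 -0.20 to 0.37 and Myc -0.38 to 0.49. For injury in KO they were Fos -0.255 to 1.2, Junb -0.17 to 0.34, Egr1 -0.0254 to 0.77, Egr2 -0.0166 to 0.81, Atf3 -0.50 to 0.0404, Ier2 -0.32 to 0.0708 and Ier3 -0.17 to 0.27. For the interaction they were Fos -0.16 to 1.29, Jun -0.28 to 0.62, Junb -0.41 to 0.11, Atf3 -0.44 to 0.25, Ier2 -0.50 to 0.0701 and Myc -0.30 to 0.57. Upper quartile scaling gave Egr2 0.0154 (KO minus WT, uninjured), Myc 0.14 (KO minus WT, uninjured), Ier2 -0.0502 (injury in WT), Jun -0.0053 (injury in KO), Junb -0.26 (injury in KO), Ier3 -0.23 (injury in KO), Myc -0.12 (injury in KO), Jun -0.17 (the interaction), Myc -0.0579 (the interaction). With edgeR the values were Ier3 -0.00772 (KO minus WT, injured), Junb -0.22 (injury in KO), Ier3 -0.19 (injury in KO), Myc -0.0321 (injury in KO), Jun -0.11 (the interaction). With DESeq2 the values were Ier2 -0.000836 (injury in WT), Jun -0.000814 (injury in KO), Junb -0.23 (injury in KO), Ier3 -0.20 (injury in KO), Myc -0.0404 (injury in KO), Jun -0.10 (the interaction). Scaling to reads outside mitochondrial genes gave Ier2 -0.0689 (injury in WT). A pseudocount of 0.1 gave Myc 0.0282 (injury in WT).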
